A study of Mus musculus with 12 samples.

Results

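Bivalent regions are stretches of chromatin that carry H3K4me3, a histone mark of active or poised promoters, together with H3K27me3, the mark laid down by Polycomb repressive complex 2. The regions described here are autosomal H3K4me3 peaks of KMT2D wild-type (WT) mouse melanoma cells that overlapped a WT H3K27me3 peak and no WT H3K27ac peak by 1 bp or more, and that also overlapped an H3K4me3 peak of KMT2D mutant cells. They numbered 1282 of 14327 autosomal WT H3K4me3 peaks, a share of 8.95%. The regions were chosen by measured values, namely the WT peaks of H3K4me3, H3K27me3 and H3K27ac and the mutant peaks of H3K4me3, so those marks are given as a description. They were then split by the mutant peaks of H3K27me3 and H3K27ac, while H3K4me1 and H3K79me2 took no part in the choice.

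The cells were isolated from ear tumours of iBIP mice, a melanoma model on a mixed FVB and B6 background. The alleles shared by both genotypes included Tyr-CreERT2, which places a tamoxifen-inducible Cre under the tyrosinase promoter of pigment cells, Rosa26-rtTA, the doxycycline-driven TetO-BRAFV600E transgene, and loxP-flanked (L/L) INK/ARF. Mutant cells came from KMT2D L/L mice and WT cells from KMT2D+/+ mice, and mice of both genotypes received doxycycline and 1 uM of 4-OHT on the ears. Chromatin immunoprecipitation and sequencing of 5 histone marks gave 1 library per genotype and mark. The labels do not say how many tumours or cell lines stand behind a genotype, so a difference between genotypes cannot be told apart from a difference between these cultures or libraries. No test between genotypes was made, and the exact binomial 95% intervals below cover counting error only.

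KMT2D is a large methyltransferase of histone H3 lysine 4 that is best known for placing H3K4me1 at enhancers. H3K27ac, placed by the acetyltransferases EP300 and CREBBP, marks active promoters and enhancers and cannot sit on the same histone tail residue as H3K27me3. H3K79me2, placed by DOT1L, marks the transcribed start of active genes. Bivalent chromatin is best known from embryonic stem cells, where it covers promoters of silent developmental genes.

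The 10 peak lists differed in length. The mutant lists held 13302 autosomal H3K4me3 peaks, 14630 H3K27me3 peaks, 22083 H3K27ac peaks, 5358 H3K4me1 peaks and 21756 H3K79me2 peaks. The WT lists held 14327, 13204, 24759, 15974 and 25869 autosomal peaks of these marks in the same order. Read depth is unknown, a region without a peak is one where no peak passed the authors' threshold, and neighbouring regions are not independent. Positions follow the authors' lists, with 1 added to each start so that they are counted from 1. The submitters' notes name the mouse build mm9, against which the positions were not checked, and the genes at these positions were not analysed here.

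Of the 14327 autosomal WT H3K4me3 peaks, 2415 (16.9%) overlapped H3K27me3, and 1676 of these (69.4%) had no WT H3K27ac. Mutant H3K4me3 was present at 1282 of the 1676, or 76.5% (95% interval 74.4 to 78.5%), against a background of 88.6% over all autosomal WT H3K4me3 peaks. Since this contrast chose the regions, the share is a description. The median WT H3K4me3 score was 398 at the 1282 regions and 150.4 at the 394 regions without mutant H3K4me3, whose WT peaks were thus the weaker ones. The score is the authors' own value for each peak, on a scale where a smaller p-value gives a larger score. In 5 equal groups of the 1676 by WT score, mutant H3K4me3 was present at 40.2% of the weakest, then at 64.8%, 80.9%, 97.0% and 99.7% of the strongest. At like score, the share with mutant H3K4me3 was 76.5% for the bivalent regions and 73.8% for WT H3K4me3 peaks with neither H3K27me3 nor H3K27ac. At like width the second share was 79.9%, so the order of the 2 groups turned with the matching. The kept regions just inside the rule overlapped a mutant H3K4me3 peak by 178, 251 and 314 bp, and the nearest ones outside it missed such a peak by 46, 55 and 83 bp. At the other edges, the smallest overlaps with WT H3K27me3 were 3, 43 and 44 bp, and WT H3K27ac came as near as 47, 93 and 354 bp.

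Most of these regions stayed bivalent in mutant cells. Of the 1282, 1102 (86.0%, 83.9 to 87.8%) had mutant H3K27me3 and no mutant H3K27ac, and 58 (4.52%, 3.45 to 5.81%) had both. Mutant H3K27ac without H3K27me3 was found at 5 regions (0.390%, 0.127 to 0.908%), and neither mark at 117 (9.13%, 7.61 to 10.8%). Mutant H3K27me3 thus lay over 1160 regions (90.5%), where the background over all 12697 autosomal WT H3K4me3 peaks with mutant H3K4me3 was 15.2%. Mutant H3K27ac lay over 63 regions (4.91%, 3.80 to 6.24%), where the background was 73.1% over all such peaks and 9.29% over the 2443 of them without WT H3K27ac. The rule asked for WT H3K27me3 and for no WT H3K27ac, so nothing is read from the distance of these shares to their backgrounds.

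The 1161 WT H3K4me3 peaks with neither WT H3K27me3 nor WT H3K27ac give the nearest comparison for H3K27ac, since they too lacked it in WT and kept H3K4me3. Mutant H3K27ac was present at 4.91% of the bivalent regions and at 14.1% (12.2 to 16.3%) of those peaks. With those peaks weighted to the WT H3K4me3 scores of the bivalent regions in 5 groups, their share was 13.9%, and weighted to the widths it was 16.6%. The share was lower at the bivalent regions in each of the 5 groups, by score and by width.

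The same rule was applied with the genotypes exchanged, which took mutant bivalent regions without mutant H3K27ac that kept H3K4me3 in WT cells. It gave 1380 of 1534 regions (88.3 to 91.4%). Of these, 79.1% had WT H3K27me3 and no WT H3K27ac, 189 (13.7%) had both, 34 (2.46%) had WT H3K27ac without H3K27me3, and 65 (4.71%) had neither. H3K27ac of the other genotype was thus present at 4.91% of the WT-defined regions in mutant cells and at 16.2% (14.3 to 18.2%) of the mutant-defined regions in WT cells. The WT H3K27ac list was the longer one. With each mark's lists limited to the same number of strongest peaks the shares were 6.50% and 12.9%, and with the stricter thresholds, a score of at least 200 or a −log10 q of at least 5, they were 2.18% and 12.2%.

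**Figure D1:**
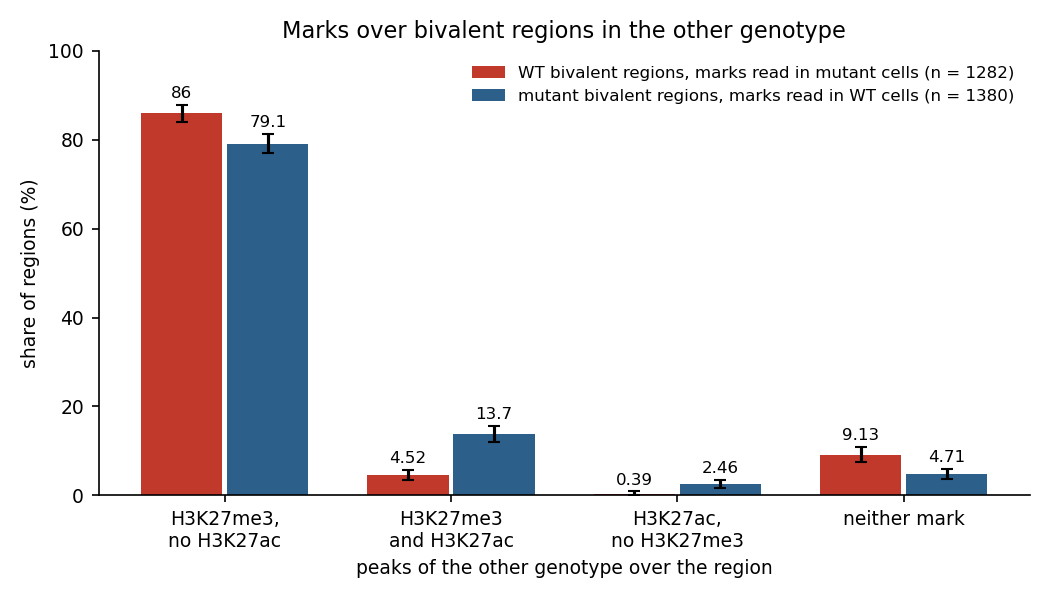
Share of regions (%) in each of 4 states of the other genotype, with exact 95% binomial intervals as error bars. Red bars give the 1282 WT bivalent regions read in mutant cells, and blue bars the 1380 mutant bivalent regions read in WT cells; H3K27me3 without H3K27ac is the commonest state in both, at 86.0% and 79.1%.

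The H3K27me3 over these regions was broad. Where both genotypes had a peak, at 1160 regions, the longest overlapping H3K27me3 peak had a median length of 4909 bp in mutant cells (95% interval of the median 4573 to 5193 bp) and 3975.5 bp in WT cells (3757 to 4216 bp). The median difference, mutant minus WT, was 789.5 bp (643 to 894 bp), and the mutant peak was longer at 69.1% of the regions. Over all 1713 autosomal WT H3K4me3 peaks with mutant H3K4me3 and both H3K27me3 peaks, a set that includes these regions, the difference was 810 bp (704 to 891 bp) and the mutant peak was longer at 70.5%. At the 553 bivalent peaks with WT H3K27ac in that set, the difference was 824 bp (697 to 968 bp). At 351 bivalent regions with neither WT H3K27ac nor mutant H3K4me3, it was 1170 bp (972 to 1439 bp). The greater length was therefore not particular to the regions without WT H3K27ac that kept H3K4me3. H3K27me3 peaks of 10 kb or more lay over 230 regions (17.9%) in mutant cells and over 136 (10.6%) in WT cells. The upper quartile of mutant peak length was 8503.25 bp at the 1160 regions and 10862 bp at the 351 without mutant H3K4me3. Long mutant peaks were thus not particular to the regions that kept H3K4me3.

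The placing of H3K27me3 along the regions differed between the genotypes. At the centre of the regions, mutant H3K27me3 covered 72.7% of them and WT H3K27me3 81.4%. At 500 bp from the centre the cover was 74.7% in mutant cells and 78.8% in WT cells, at 2 kb it was 56.9% and 49.6%, and at 5 kb 21.8% and 17.0%. Cover was thus lower in mutant cells at the centre and higher on the flanks. The rule asked for WT H3K27me3, which favours WT at the centre, so the same was read at the 1160 regions with a peak in both genotypes. There the centre was covered at 80.3% (77.9 to 82.6%) in mutant cells and 84.2% (82.0 to 86.3%) in WT cells. Cover of the centre and of both flanks at 1 kb was found at 63.3% (60.4 to 66.1%) and 56.1% (53.2 to 59.0%).

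Some regions had H3K27me3 on both flanks, 1 kb to either side, and none at the centre. Over the 1282 regions this gap was found at 73 (5.69%, 4.49 to 7.11%) in mutant cells and at 36 (2.81%, 1.97 to 3.87%) in WT cells, of which 8 had it in both. The 73 regions had stronger WT H3K4me3 peaks than the other 1209, with median scores of 659 (564 to 829) and 384 (363 to 408). At the regions from the exchanged rule with H3K27me3 in both genotypes, the gap was found at 89 of 1281 (6.95%) in mutant cells and at 39 (3.04%) in WT cells. Most of those regions carried the marks that both rules ask for, read from the same lists. The 2 sets thus overlap, and the second is not an independent observation of the gap. Joining peaks of each mark within 1000 bp lowered the shares over the bivalent regions to 3.22% in mutant cells and 0.966% in WT cells. Under the stricter thresholds both shares were 1.74%, and no difference was seen.

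**Figure D2:**
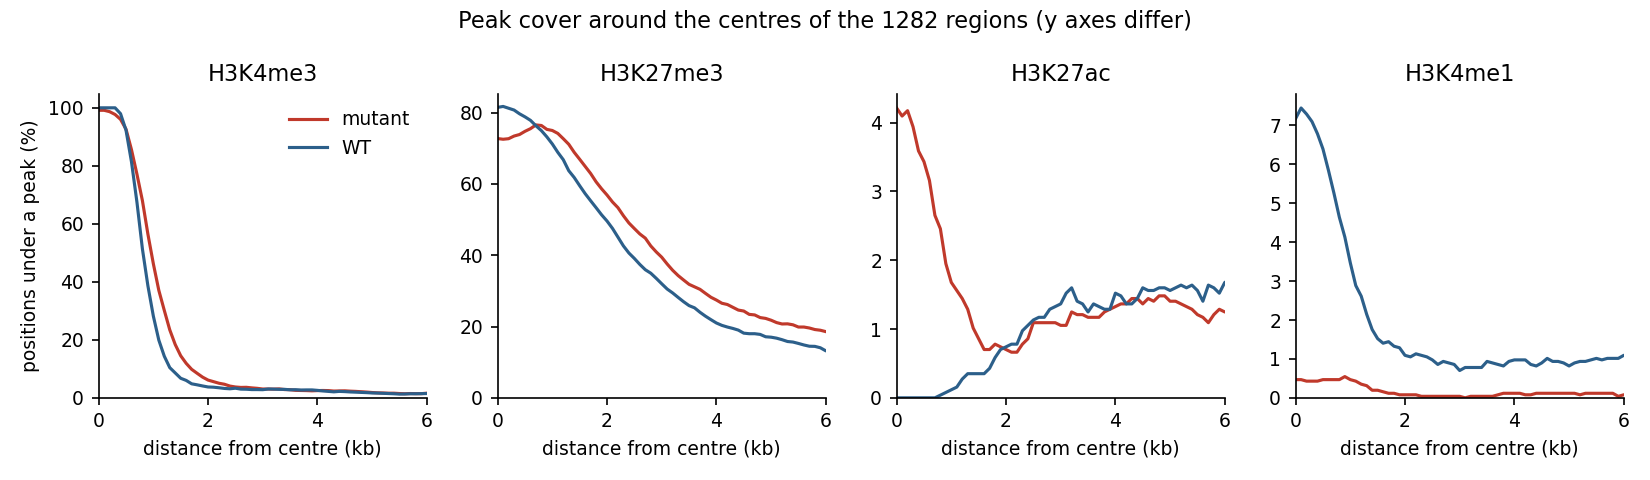
Share of positions (%) under a peak by distance from the region's centre (kb, both sides together), for 4 marks, in mutant (red) and WT (blue) cells. Mutant H3K27me3 sits below WT at the centre and above it from about 1 kb, mutant H3K4me3 reaches farther out, and WT H3K27ac is at 0 in the centre because the rule asked for it.

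The H3K4me3 peaks themselves were wider in mutant cells. At the 1220 regions where 1 WT peak met 1 mutant peak, the median width was 1884.5 bp in mutant cells (1847 to 1940 bp) and 1616.5 bp in WT cells (1581 to 1664 bp). The median difference was 243 bp (219 to 266 bp), and the mutant peak was wider at 931 regions, or 76.3% (73.8 to 78.7%), against a background of 70.7% over 11939 such pairs. The median difference was 152 bp over all pairs, 162 bp (126 to 200 bp) at bivalent regions with WT H3K27ac, and 85 bp at peaks with neither WT mark. Grouped by like WT width, the share of wider mutant peaks was 76.3% at the regions, 73.7% at H3K27ac-marked peaks without H3K27me3, where it was the higher one in 2 of 5 groups, and 62.0% at peaks with neither WT mark. At bivalent regions with WT H3K27ac it was 73.3% at like width, close to that of the regions without, and the smallest of these groups held 19 peaks. At like WT H3K4me3 score, 76.3% at the regions stood against 69.5% at H3K27ac-marked peaks without H3K27me3. It stood against 68.5% at bivalent regions with WT H3K27ac, whose smallest group held 14 peaks, and 64.3% at peaks with neither WT mark. The size of these differences thus depended on the matching. At 1 kb from the centre, mutant H3K4me3 covered 46.2% and WT H3K4me3 28.2%. The mutant H3K4me3 score was not higher, with a median of 308 in mutant cells and 398 in WT cells, and scores from lists of unknown depth are not comparable between libraries.

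**Figure D3:**
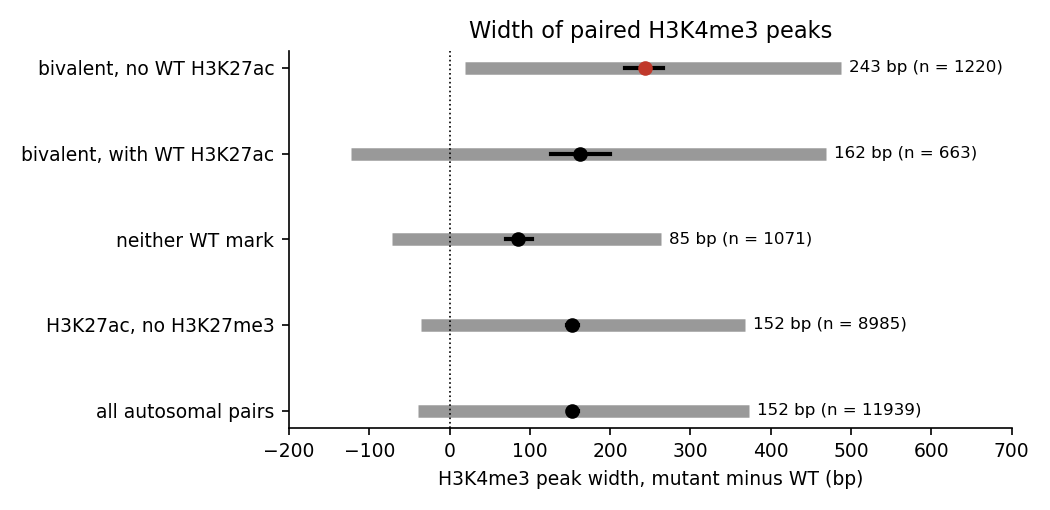
Difference in H3K4me3 peak width, mutant minus WT (bp), for regions where 1 WT peak met 1 mutant peak, by the WT marks. Dots are medians, black lines their 95% intervals and grey bars the middle 50% of regions; bivalent regions without WT H3K27ac have a median of 243 bp, the largest of the 5 rows drawn.

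The largest narrowing was found at chr11:95446099-95449309 and chr4:124333210-124339033, at both of which the width fell by 1879 bp in mutant cells. At chr11:95446099-95449309 the peak was 1332 bp wide in mutant cells and 3211 bp in WT cells, while the H3K27me3 peak was 16357 bp long in mutant cells and 6785 bp in WT cells. At chr4:124333210-124339033 the H3K4me3 widths were 3945 bp in mutant cells and 5824 bp in WT cells, and the H3K27me3 peaks 14037 and 8007 bp. Both of these regions held WT H3K79me2, over 2034 and 3777 bp, and no mutant H3K79me2. The third, chr2:147009381-147012242, had H3K4me3 peaks of 1079 bp in mutant cells and 2862 bp in WT cells under H3K27me3 peaks of 18736 and 13819 bp. The 4 largest gains in width, 4472 to 5910 bp, were all at mutant peaks that spanned 2 WT H3K4me3 peaks, and they are not among the 1220 pairs.

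Regions that lost H3K27me3 from the mutant list had short H3K27me3 peaks in WT cells. The median WT peak length was 935 bp (798 to 1178 bp) at the 117 regions with neither mutant mark and 4082 bp (3841 to 4319 bp) at the 1102 with H3K27me3 alone. In 5 groups by the length of the WT H3K27me3 peak, mutant H3K27me3 was present at 64.2% of the regions under the shortest peaks, 92.6%, 96.5% and 99.2% of the next, and all 256 of the regions under the longest. At 29.9% of the 117 regions a mutant H3K27me3 peak lay within 1 kb. WT H3K27me3 peaks at the bivalent regions had a mutant H3K27me3 peak over them in 90.1% of cases (88.3 to 91.6%), against 62.2% for WT H3K27me3 peaks elsewhere on the autosomes. The share elsewhere was 86.0% at like peak length and 78.8% at like −log10 q. Most of the difference was thus absent at like length.

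The strongest region without mutant H3K27me3 or H3K27ac was chr4:87677082-87680917, with H3K4me3 peaks of 4479 bp and score 2873 in mutant cells and of 3836 bp and score 2911 in WT cells. Its WT H3K27me3 peak was 468 bp long. The others were chr5:123793510-123796389, with a WT H3K27me3 peak of 1372 bp, chr2:37557730-37559893, with 818 bp, and chr11:59988721-59990852, with 3543 bp. A mutant H3K27me3 peak lay close by at the chr4 region, 365 bp away, and at the chr5 region, 196 bp away. The nearest one was 71736 bp from the chr2 region and 113601 bp from the chr11 region. The H3K4me3 peak was wider in mutant cells at all 4, by 602 to 957 bp. Only chr11:59988721-59990852 of these 4 also held H3K79me2, over 1379 bp in mutant cells and 1674 bp in WT cells.

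**Figure D4:**
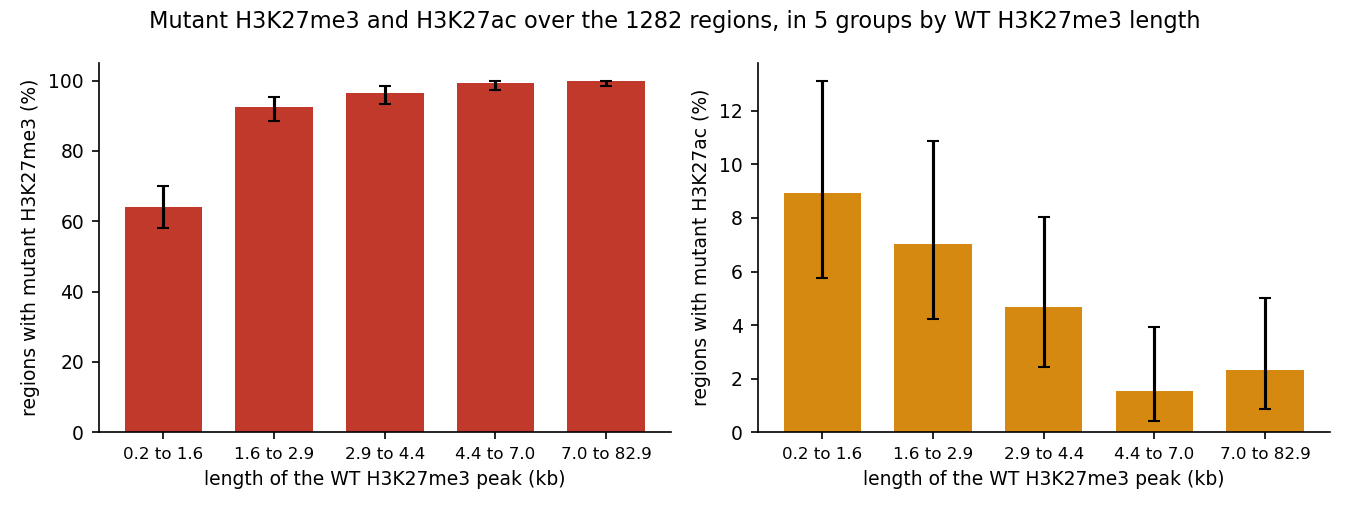
Share of the 1282 regions (%) with a mutant H3K27me3 peak (left) and a mutant H3K27ac peak (right), in 5 groups by the length of the WT H3K27me3 peak (kb); error bars are exact 95% intervals. The left share is 64.2% under the shortest peaks and 100% under the longest, and the right share is 8.95% under the shortest and 2.34% under the longest.

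The new H3K27ac peaks in mutant cells overlapped the WT H3K4me3 peak by the split that set these regions, so their position is a description. At the 63 regions their median length was 1528 bp and their median score 139, against 2206 bp and 423 for the mutant H3K27ac peaks over all autosomal WT H3K4me3 peaks with mutant H3K4me3, most of which had WT H3K27ac too. The new H3K27ac peaks at the WT H3K4me3 peaks with neither WT mark had a median length of 1293.5 bp (1177 to 1337 bp) and a median score of 136, so a low score was not particular to the bivalent regions. At the bivalent regions the centres of the H3K27ac peaks lay a median of 295 bp from the centre of the region. The required overlap limits this distance, and it was not set against another group. At the 58 regions with both marks, 56 of the H3K27ac peaks themselves overlapped a mutant H3K27me3 peak, and 72.7% of the length of these H3K27ac peaks was under H3K27me3. These 58 were set by having both marks over the same region, which favours such overlap, so these values are a description. The lists come from cell populations, so marks on the same alleles and marks on different cells or alleles cannot be told apart.

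The 58 regions had stronger WT H3K4me3 than the regions that kept H3K27me3 alone, with a median score of 621 (418 to 837) against 390 (363 to 412). Their WT H3K27me3 peaks were shorter, at 2486.5 bp (1820 to 2959 bp) against 4082 bp. The acetylated share was 8.95% and 7.03% in the 2 groups of regions with the shortest WT H3K27me3 peaks, 4.69% in the next, and 1.56% and 2.34% in the 2 groups with the longest.

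The strongest of the 58 was chr5:81448277-81452689, whose WT H3K4me3 score was 3100. Mutant H3K27ac covered 2225 bp of it, and the H3K27me3 peak was 7000 bp long in mutant cells and 379 bp in WT cells. H3K79me2 covered 1532 bp of it in mutant cells and 1823 bp in WT cells. The most mutant H3K27ac within a region, 2919 bp from a peak with a score of 407, was at chr1:62749038-62754475. H3K27me3 peaks there were 5429 bp long in mutant cells and 7007 bp in WT cells. By whole peak length, the longest mutant H3K27ac at the 58 regions was 3620 bp. At chr5:75547188-75553397, mutant H3K27ac covered 2134 bp, and the H3K4me3 peak was 4821 bp wide in mutant cells and 6210 bp in WT cells. At chr8:79422438-79426853, mutant H3K27ac covered 917 bp and the H3K27me3 peaks were 806 bp in mutant cells and 1422 bp in WT cells. These regions differ in direction: H3K27me3 was longer in mutant cells at both chr5 regions and shorter at the chr1 and chr8 ones.

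At the 5 regions with mutant H3K27ac and no mutant H3K27me3, the WT H3K27me3 was slight, covering 218 to 761 bp, and the new H3K27ac peaks had low scores, of 115 to 133. They included chr1:90966007-90968015, with 841 bp under mutant H3K27ac and 761 bp under WT H3K27me3, and chr12:86628744-86630163, with 1092 bp and 218 bp. None of the 5 carried H3K79me2 in either genotype.

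H3K4me1, the mark that KMT2D is known for, was rare at these regions in mutant cells. A mutant H3K4me1 peak lay over 12 of the 1282 regions (0.936%, 0.485 to 1.63%) and a WT one over 128 (9.98%, 8.40 to 11.8%). The backgrounds over all autosomal WT H3K4me3 peaks with mutant H3K4me3 were 10.9% in mutant cells and 25.1% in WT cells. At peaks with neither WT mark, grouped by like H3K4me3 score, the shares were 3.33% in mutant cells and 13.1% in WT cells, so most of the distance of the WT share to its background was absent there. The share was lower at the bivalent regions in 5 of 5 groups for mutant H3K4me1 and in 4 of 5 for WT H3K4me1. Only 7 regions had H3K4me1 in both genotypes, and 5 in mutant cells alone. The mutant H3K4me1 list was much the shorter one over the whole genome, and with lists limited to the same number of strongest peaks the shares were 1.01% in mutant cells and 2.55% in WT cells. Under the stricter thresholds they were 0.218% and 4.79%. How far list length accounts for the difference was not tested beyond these settings.

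Single WT H3K4me1 peaks at the regions were followed into the mutant list. Of 133 such peaks, 8 overlapped a mutant H3K4me1 peak (6.02%, 2.63 to 11.5%), against 1019 of 3103 (32.8%, 31.2 to 34.5%) of those at WT H3K4me3 peaks with H3K27ac and no H3K27me3. The peaks at the bivalent regions were weaker, with a median score of 142.7 against 172.6. At like score the shares were 6.10% and 26.5%, and at like length 5.93% and 30.8%, and the share was lower at the bivalent regions in each of the 5 groups both ways. Counted by region, 7 of the 128 regions with WT H3K4me1 (5.47%, 2.23 to 10.9%) had mutant H3K4me1 too. The same count was 11 of 115 (9.57%, 4.87 to 16.5%) at bivalent regions with WT H3K27ac and 23 of 154 (14.9%, 9.71 to 21.6%) at peaks with neither WT mark. Regions are not replicates, so no test was made of these differences.

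The 12 regions with mutant H3K4me1 were all among those with mutant H3K27me3 and no H3K27ac. That class held 86.0% of all 1282 regions, so nothing is read from this count. At chr11:23975536-23982448, the region with the best WT H3K4me3 score among those 1102, H3K4me1 covered 1075 bp in mutant cells and 1259 bp in WT cells, with H3K4me3 peaks of 7366 bp in mutant cells and 6913 bp in WT cells. At chr5:108151713-108156217, chosen after its values were seen, H3K4me1 was longer in mutant cells, with peaks of 2213 bp in mutant cells and 1212 bp in WT cells. At chr2:119150485-119153024, also chosen afterwards, the H3K4me1 peaks were 1470 bp in mutant cells and 2547 bp in WT cells. The mutant H3K4me1 scores at the 12 regions were low, with a median of 126.

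**Figure D5:**
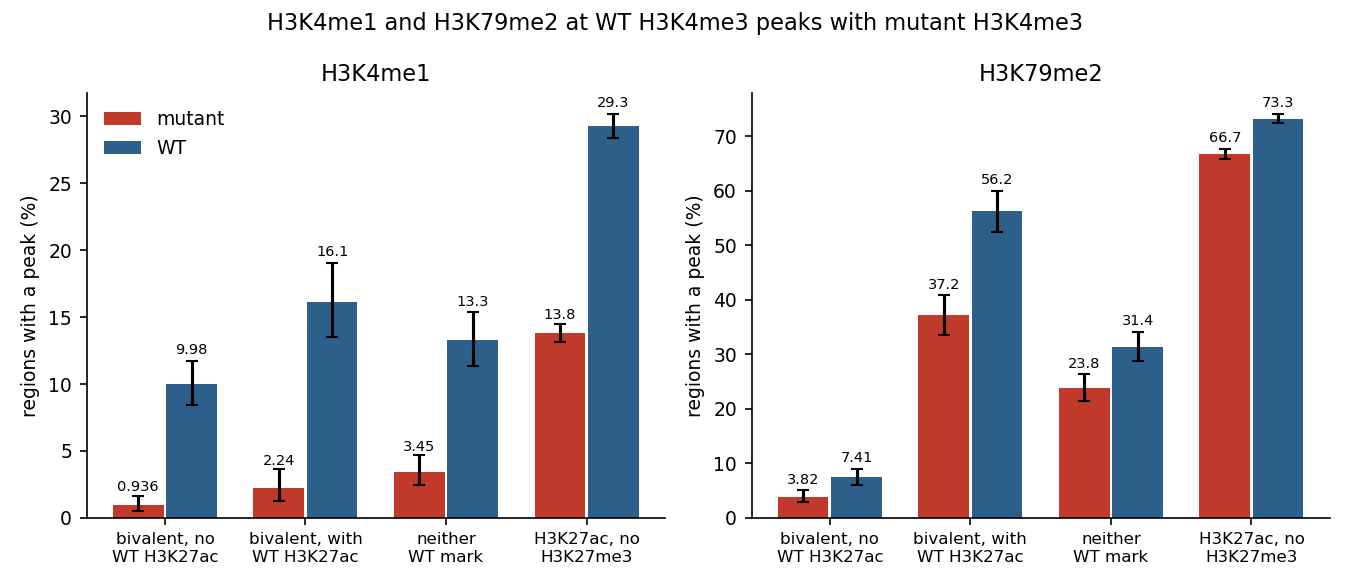
Share of regions (%) with an H3K4me1 peak (left) and an H3K79me2 peak (right) in mutant (red) and WT (blue) cells, for 4 groups of WT H3K4me3 peaks that kept mutant H3K4me3, set by their WT marks; error bars are exact 95% intervals. Bivalent regions without WT H3K27ac have the lowest shares of the 4 groups for both marks in both genotypes, down to 0.936% for mutant H3K4me1. The 394 such regions without mutant H3K4me3 are not drawn, and both marks were scarce there too. H3K4me1 lay over 1 of them in mutant cells and 32 in WT cells, and H3K79me2 over 5 and 11.

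H3K79me2, the mark of transcribed gene starts, was also scarce. It lay over 49 regions (3.82%, 2.84 to 5.02%) in mutant cells and 95 (7.41%, 6.04 to 8.98%) in WT cells, against backgrounds of 54.8% in mutant cells and 61.8% in WT cells. At WT H3K4me3 peaks with neither WT mark, grouped by like H3K4me3 score, the shares were 22.9% in mutant cells and 30.6% in WT cells. Of the 95 regions with WT H3K79me2, 42 (44.2%, 34.0 to 54.8%) had it in mutant cells too. Of 100 WT H3K79me2 peaks at the regions, 47% had a mutant H3K79me2 peak, and at H3K27ac-marked peaks without H3K27me3 the share was 72.0% at like −log10 q and 74.9% at like length.

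H3K79me2 was more frequent at the regions that gained H3K27ac. H3K79me2 lay over 17 of the 58 regions with both mutant marks (29.3%, 18.1 to 42.7%) in mutant cells and again over 17 in WT cells, 15 of them being the same regions. Over the 1102 regions with H3K27me3 alone, it lay over 28 (2.54%, 1.69 to 3.65%) in mutant cells and 65 (5.90%, 4.58 to 7.46%) in WT cells, with 23 in both. WT H3K79me2 was thus kept in mutant cells at 15 of 17 regions (88.2%, 63.6 to 98.5%) with both marks and at 23 of 65 (35.4%, 23.9 to 48.2%) with H3K27me3 alone. Read the other way, mutant H3K27ac was present at 17 of 95 regions with WT H3K79me2 (17.9%, 10.8 to 27.1%) and at 46 of 1187 without it (3.88%, 2.85 to 5.14%). At like WT H3K4me3 score, WT H3K79me2 was present at 26.9% of the regions with mutant H3K27ac and at 9.44% of those with H3K27me3 alone, and it was higher at the acetylated regions in 4 of 5 groups, the smallest of which held 12 of them. Regions are not replicates, so no test was made of this difference.

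The regions lay far from acetylated chromatin. The rule barred overlap with WT H3K27ac, which removes the shortest distances, so these values are a description. The nearest H3K27ac peak was a median of 54325.5 bp away in mutant cells and 51406.5 bp in WT cells, and it was within 10 kb at 14.2% and 12.9% of the regions. For peaks with neither WT mark, which also lacked WT H3K27ac, the same medians were 20999 bp and 25155 bp. For the 394 bivalent regions without WT H3K27ac and without mutant H3K4me3 they were 44307 bp and 36866 bp. The nearest H3K4me1 peak was a median of 197966 bp away in mutant cells and 76182 bp in WT cells. For peaks with neither WT mark these medians were 154520 bp and 51232 bp, so a longer distance in mutant cells, whose H3K4me1 list was the shorter one, was not particular to the bivalent regions.

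Some regions were neighbours. In all, 195 regions (15.2%) lay within 50 kb of another, in 91 chains, of which 12 held 3 or more regions. This share was not set against other H3K4me3 peaks, so whether it is high or low is not known. The longest in number was chr3:89082824-89142467, with 4 regions that all had mutant H3K27me3. H3K27ac was gained at 1 of the 4, chr3:89082824-89085574, where mutant H3K27ac covered the whole 2751 bp. Over the 59644 bp of that chain, H3K27me3 covered 37.2% in mutant cells and 29.7% in WT cells. The chain chr3:93247335-93252028, of 3 regions, was wholly under H3K27me3 in mutant cells and covered at 78.8% in WT cells. The chain chr2:74493428-74511379, of 3 regions, was wholly covered in mutant cells and covered at 93.2% in WT cells, and it held no H3K27ac peak in either.

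The longest mutant H3K27me3 peaks reached far beyond the regions. A single mutant peak of 141057 bp held chr6:52108137-52109655, chr6:52141695-52142697 and chr6:52171072-52172137, where the WT H3K27me3 peaks were 11821, 71414 and 71414 bp long. At the first of these, mutant H3K27ac covered 1447 bp inside that H3K27me3 peak, with a score of 220, and the other 2 regions had none. At chr11:96175546-96176649, the H3K27me3 peak was 132232 bp long in mutant cells and 18443 bp in WT cells. The H3K4me3 peaks there were of like width, 1056 bp in mutant cells and 1104 bp in WT cells.

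The regions were spread over all 19 autosomes. They made up 6.35% (chromosome 19) to 11.99% (chromosome 3) of each autosome's WT H3K4me3 peaks, and mutant H3K4me3 was kept at 68.8 to 86% of each autosome's bivalent peaks without WT H3K27ac. Regions with mutant H3K27ac were found on 18 autosomes, with at most 7 on any of them, and none on chromosome 14.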

How the data were processed

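ChIP-seq peak lists of 5 histone marks in KMT2D mutant and KMT2D WT melanoma cells were used, 10 lists, each from 1 library. The 2 input samples were not used here. The submitters' processing notes name Bowtie, MACS, MACS2 and deepTools, and the build mm9, but give no version and no role. Libraries were amplified with 10 PCR cycles, per the labels' protocols. For H3K4me3, H3K27ac and H3K4me1 the authors deposited MACS lists with 1 score per peak, read here as −log10 p multiplied by 10. For H3K27me3 and H3K79me2 the authors deposited broad peaks with a fold over background (ratio), together with −log10 values of p and of q, and the −log10 q ranked these peaks. All such values are the authors' and were used within a list. The lists hold no read counts, so depth is unknown.

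Overlap meant 1 bp or more. Shares have exact Clopper-Pearson and medians exact order-statistic 95% intervals. Like-for-like shares average 5 groups cut at the quantiles of the first set named. Where a region met several peaks of a mark, the longest was taken. Overlap functions were tested on simulated data. The work ran in Python 3.11.15 with numpy 2.4.6, pandas 2.3.3 and scipy 1.17.1, and figures were drawn with matplotlib 3.10.9.

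The regions open to naming were, in each of 4 classes, the 4 with the best WT H3K4me3 score. Open overall were the 4 with the most bp under mutant H3K27ac and the 4 under the longest mutant H3K27me3. The 4 with the largest gain and the 4 with the largest drop in H3K4me3 width were added. So were those with the smallest mutant H3K4me3 overlap, and the 3 chains with most regions. Ties between chains went to the shorter span, a choice made after the values were seen. The regions, lists and comparisons were chosen with earlier results of these data known. Alternatives were 2 stricter thresholds, merged peaks, a larger overlap, a 1000-bp margin, lists of equal length and all chromosomes. Regions on chromosome 18 are counted and not named. Part of the genotype that both groups share is not reported here.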

Additional observations from a re-analysis of the deposited data

How the results depend on the processing

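Each of 20 results was computed under 7 alternatives, and 108 of the 140 values stayed within the 95% interval of the value reported (for the number of regions, within 1.5 times); no direction reversed. None moved with an overlap of at least 10% of the peak or with all chromosomes. The causes of the moves below were not tested.

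With peaks of score at least 200 or −log10 q at least 5, 459 regions were found and mutant H3K4me3 was kept at 70.5%. Of these 459, 81.7% had mutant H3K27me3 alone, 1.96% both marks, 16.1% neither and 2.18% any mutant H3K27ac. H3K4me1 was at 0.218% in mutant and 4.79% in WT cells, and mutant H3K79me2 at 1.31%. The median H3K4me3 width was 2349 bp in mutant and 1891 bp in WT cells, and WT H3K27me3 covered 81.6% of the length. H3K27me3 was interrupted at the centre of 1.74% in mutant and 1.74% in WT cells. WT H3K27ac lay over 12.2% of the regions of the exchanged rule.

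With lists of equal length, mutant H3K4me3 was kept at 83.0%, and 83.0% of the regions had H3K27me3 alone, 1.08% H3K27ac alone and 6.50% any H3K27ac, all in mutant cells. WT H3K4me1 lay over 2.55%, the WT H3K4me3 width was 1666 bp, and the exchanged rule gave 12.9%. With a 1000-bp margin, 7.33% had neither mutant mark, H3K79me2 was at 5.31% in mutant and 9.27% in WT cells, and WT H3K27me3 covered 75.3% of the length. With peaks within 1000 bp merged, the interrupted share was 3.22% in mutant and 0.966% in WT cells.

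The share of WT H3K4me1 peaks with a mutant one at H3K27ac-marked peaks without H3K27me3, 32.8% as reported, was 30.8% with a score of at least 100, 18.5% with at least 200, 35.9% merged and 52.4% with equal lists. No paired analysis was possible because each genotype had 1 library per mark. Unknown depth limits every absence of a peak.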
